A study of Homo sapiens with 6 samples.

Results

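Oxidative phosphorylation is carried out by 5 protein complexes in the inner mitochondrial membrane. Complexes I to IV pass electrons to oxygen and, except for complex II, pump protons. Complex V, the ATP synthase, lets the protons back and makes ATP. Most of their subunits are encoded in the nucleus, and some are encoded by the mitochondrial genome. Pluripotent stem cells are known for drawing much of their ATP from glycolysis while still expressing these genes. The nuclear genes were chosen by symbol alone, from the series NDUFA, NDUFB, NDUFC, NDUFS and NDUFV followed by a number, SDHA to SDHD, every symbol starting with UQCR, and the COX4 to COX8 and ATP5 series. This gave 87 of the 23591 genes in the table, of which 37 belong by name to complex I, 4 to complex II, 10 to complex III, 17 to complex IV and 19 to complex V.

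Some of these names stand for something other than a subunit. ATP5S and ATP5SL (now DMAC2L and DMAC2) are not subunits of the enzyme, COX7A2L is a factor of respiratory supercomplexes, UQCRHL, ATP5L2, UQCRBP1 and ATP5EP2 are copies or pseudogenes, and NDUFA4, named for complex I and counted there, is now assigned to complex IV. NDUFAB1 and CYC1, which are subunits by function, have other kinds of names and are given with the partner genes. The mitochondrially encoded subunits are not analysed here.

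The cells were of the established line H1, derived from a human embryo and pluripotent, grown in the defined, serum-free medium TeSR-E8 on growth-factor-reduced Matrigel. There were 3 libraries labelled HEB-/- (HEB KO) and 3 labelled wild type, all of total RNA depleted of ribosomal RNA. HEB is the basic helix-loop-helix transcription factor encoded by TCF12. The labels do not say how the knockout was made, whether the HEB KO cells are 1 clone, or whether replicates are separate cultures. Every p-value below therefore rests on the spread among at most 3 libraries of a group, and that spread may be technical. Values given without both libraries numbered 1 compare only libraries 2 and 3 of each group. Their intervals and p-values rest on fewer libraries still. Values are FPKM, the fragments mapped to a gene per kilobase of its transcript, scaled to the size of the library, so levels of different genes can be set side by side per length.

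The targeted gene was checked first. TCF12 had 14.2, 6.69 and 8.28 FPKM in HEB KO, against 44.2, 55.7 and 51.0 FPKM in wild type, so every HEB KO library lay below every wild type library. On the log2(FPKM + 1) scale used throughout, its log2 fold change, HEB KO over wild type, was -2.31 (95% interval -2.96 to -1.66, adjusted p = 0.0310 by limma with Benjamini-Hochberg adjustment over all 12937 genes tested). Leaving out HEB KO library 1 gave an adjusted p of 0.00346 by limma, and leaving out any 1 of the other 5 gave 0.126 to 0.193. The stem cell identity of the cells was read from 12 markers of pluripotency, all detected in every library and summing to 2186 to 3876 FPKM in HEB KO, with the lowest sum in library 1, and 3282 to 3832 FPKM in wild type. Among them NANOG was lower without overlap, with 74.3, 123 and 95.1 FPKM in HEB KO against 208, 203 and 198 FPKM in wild type (log2 fold change -1.08, limma adjusted p = 0.274). LIN28B was also lower without overlap (-0.48, limma adjusted p = 0.549). SALL4 was higher without overlap, with 53.6, 60.3 and 64.4 FPKM in HEB KO against 39.9, 43.6 and 37.4 FPKM in wild type (0.55, limma adjusted p = 0.422). Of all tested genes, 11.8% were lower and 7.72% higher without overlap.

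HEB KO library 1 stood apart from the other 5 libraries before any subunit was examined. Its summed FPKM over all genes was 440703, against 635114 to 714875 in the others, and 13961 of its genes had at least 1 FPKM, against 12468 to 12865. Of 10 fibroblast and mesenchyme markers, 7 were below 1 FPKM in all libraries and 1 was at 0 in all. The list's sum was 14.2 to 92.8 FPKM in HEB KO and 11.7 to 25.2 FPKM in wild type. Its highest sum was in HEB KO library 1, with 39.7 FPKM of COL1A1 and 46.3 FPKM of COL1A2, while the defining genes LUM and DCN were at most 0.0436 FPKM there. The 7 trophoblast and amnion markers summed to 1.45 to 8.27 FPKM in HEB KO and 0.800 to 1.18 FPKM in wild type, with CGB at 0 in all libraries. Their highest sum was again in HEB KO library 1, with 2.47 FPKM of GATA3 and 3.90 FPKM of TFAP2A, which had at most 0.0407 and 0.0609 FPKM in any other library. In that library CGA, CDX2 and HAND1 had at most 0.173 FPKM, and KRT7, with 1.70 FPKM there, was highest in HEB KO library 3, with 2.78 FPKM. The neural, mesoderm, endoderm and blood lists each summed to at most 7.20 FPKM in any library. The part of these features in the results was not tested, and most fold changes are given with and without the libraries concerned.

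Transcripts of the subunits were abundant in both groups and kept nearly the same order of levels. Together the 87 genes summed to 5979, 12500.2 and 14251 FPKM in the 3 HEB KO libraries, against 12341, 12804 and 15078 FPKM in wild type. That is 1.79 ± 0.401% of all FPKM in HEB KO and 1.96 ± 0.190% in wild type (SD, n = 3 each), and the ranges overlapped. HEB KO library 1 held 0.447 times the sum of the mean of HEB KO libraries 2 and 3. Within libraries 2 and 3, the HEB KO sum was 0.959 times that of wild type. The levels of the 78 tested genes correlated across genes between the group means with a Spearman coefficient of 0.967, and with at least 0.879 between any 2 libraries (genes share libraries and are not independent replicates).

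**Figure D1:**
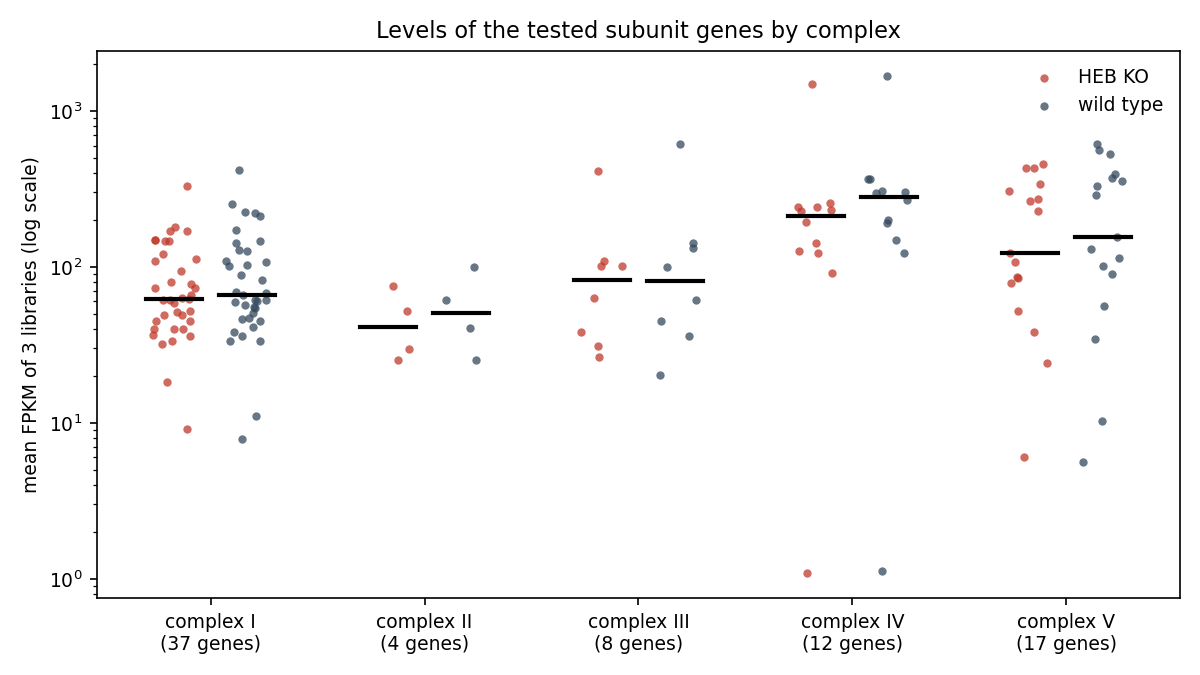
Mean FPKM of each tested gene over 3 libraries (y axis, log scale), by complex, for HEB KO (red, left of each pair) and wild type (blue, right). Each point is 1 gene and bars mark medians; the ranges of the groups largely coincide within each complex, and complex IV has the highest median, with COX7C at the top and COX7A1 at the bottom.

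A gene was tested where 3 or more of the 6 libraries had 1 FPKM or more, which kept 78 of the 87 genes: all 37 of complex I, all 4 of complex II, 8 of complex III, 12 of complex IV and 17 of complex V. The 9 below it were COX4I2, COX6A2, COX6B2, COX7B2, COX8C, UQCRHL, UQCRBP1, ATP5L2 and ATP5EP2, which are tissue isoforms, copies or pseudogenes. No gene of the 78 passed the threshold of adjusted p at most 0.05, in either direction, whereas 31 of the 12937 tested genes did (0.240%; 0.0232% higher and 0.216% lower in HEB KO). None had an unadjusted limma p under 0.05, against 10.0% of all genes. The smallest adjusted p among them was 0.511, for ATP5D. The median width of a 95% interval, on either side of the log2 fold change, was 0.83, without adjustment over genes. Smaller changes were therefore not detectable in many of these genes. The adjusted threshold asks for more, and ATP5D did not pass it at a log2 fold change of 1.44. Without both libraries numbered 1, again none of the 78 passed the threshold, against 3.71% of all genes, and 8 had an unadjusted p under 0.05 (10.3%, against 24.5% of all genes): NDUFA11, NDUFB7, NDUFS7, NDUFS8, SDHA, UQCR11, COX7A1 and ATP5D.

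The direction of the means was mostly downward with all 6 libraries. The median log2 fold change was -0.33, with 65 genes lower and 13 higher in HEB KO, against -0.04 and 54.8% lower over all tested genes. After quantile normalization the median was -0.20, with 53 lower and 25 higher. Trimmed mean of M values scaling gave a median of -0.28, with 61 lower and 17 higher. After the trend of each library on transcript length and GC content was removed, the median was -0.22, with 64 lower and 14 higher. Without both libraries numbered 1 it was -0.07, with 44 lower and 34 higher, against -0.01 over all genes, and without HEB KO library 1 alone it was -0.00, with 39 genes on each side. In bulk RNA, fewer cells that carry a transcript and less of it per cell cannot be told apart.

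The lower mean in HEB KO came with 1 library. Against the mean of HEB KO libraries 2 and 3, HEB KO library 1 had a median log2 difference over the 78 genes of -1.05 (quartiles -1.26 and -0.91), while the median over all genes was 0.00. A value more than 2-fold below that mean was seen in 50 of the 78 genes (64.1%), against 10.9% of all genes. HEB KO library 1 was the lowest of all 6 libraries for 66 genes (84.6%), among them every tested gene of complexes II, III and IV, against 30.2% of all genes. The median difference was -1.04 in complex I, -0.81 in complex II, -1.16 in complex III, -0.99 in complex IV and -1.19 in complex V. In the other 12 genes another library was the lowest. For 10 of them, NDUFA3, NDUFA11, NDUFA13, NDUFB7, NDUFS6, NDUFS7, NDUFS8, NDUFV1, ATP5D and ATP5SL, this was wild type library 1, and HEB KO library 1 was still below HEB KO libraries 2 and 3. In the remaining pair HEB KO library 1 was not far below HEB KO libraries 2 and 3. ATP5S, which is not a subunit, had 6.44, 4.94 and 6.62 FPKM in HEB KO, so library 1 lay between libraries 2 and 3. The accessory subunit NDUFC2 had 29.7, 34.5 and 32.3 FPKM, with library 1 at 0.887 times the mean of libraries 2 and 3.

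Other large gene groups had low values in the same library. The median difference of HEB KO library 1 was -1.20 over 76 cytosolic ribosomal protein genes, -1.04 over 76 mitochondrial ribosomal protein genes and -1.14 over 36 proteasome subunit genes. It was -0.60 over 53 assembly factors of the same complexes and -0.33 over 20 regulators of mitochondrial biogenesis. Transcript length moved with the difference over all genes, with a Spearman coefficient of 0.39 over 12602 genes, and with 0.21 over the 78 subunit genes. The median transcript length was 897 bases over the 78 genes and 2816 bases over all tested genes. The part of transcript length in these differences was not tested.

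**Figure D2:**
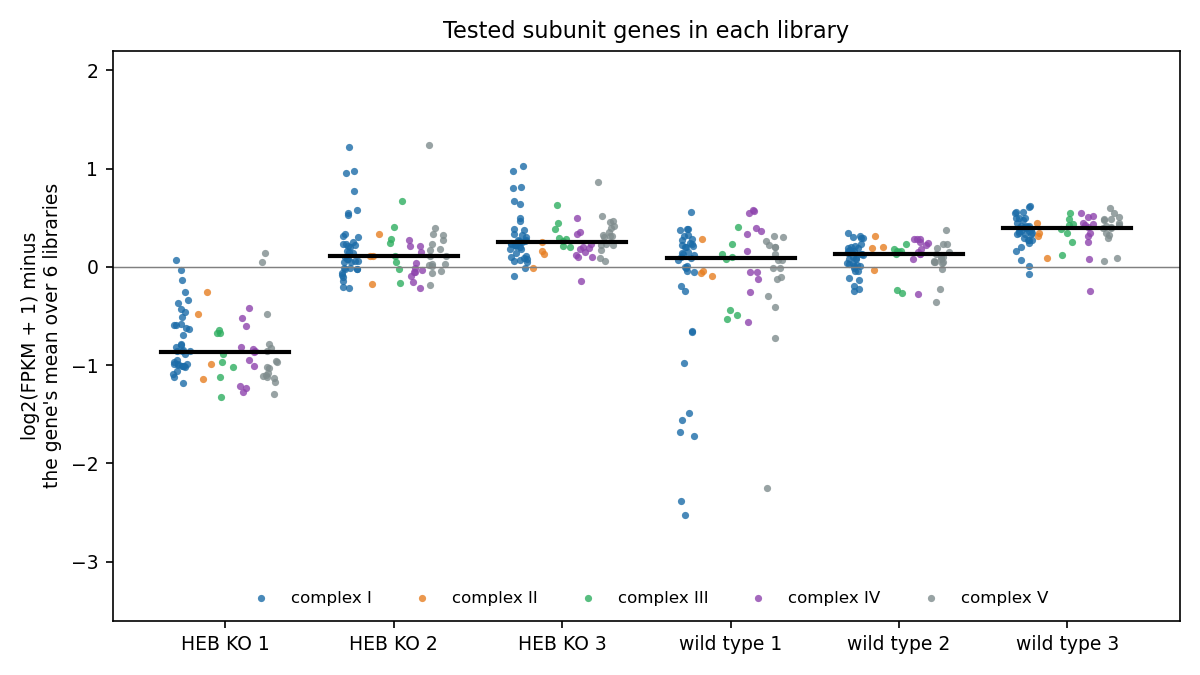
Difference of each tested gene from its own mean over the 6 libraries (y axis, log2 of FPKM + 1), for each library (x axis, HEB KO left of wild type). Points are genes coloured by complex and bars are medians. HEB KO library 1 lies below 0 for most genes of every complex. Wild type library 1 has a tail of low genes, mostly of complex I, with ATP5D and ATP5SL of complex V among the low ones.

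Wild type library 1 also differed from its group, in a smaller set of genes. Its median difference from the mean of wild type libraries 2 and 3 was -0.11 over the 78 genes, but 10 genes lay more than 2-fold below that mean (12.8%, against 6.69% of all genes). These were NDUFA3, NDUFA7, NDUFA11, NDUFA13, NDUFB7, NDUFS6, NDUFS7 and NDUFS8 of complex I, and ATP5D and ATP5SL. The GC content of the transcript moved with this difference: the Spearman coefficient was -0.53 over the 78 genes and -0.47 over 12602 genes, and for HEB KO library 1 it was 0.15 and 0.00. GC content ranged from 36.4% in NDUFA5 to 69.3% in ATP5D.

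The first 60 coding bases of 5 genes that differ in GC content, taken from GENCODE 29 transcripts, are printed with G and C in capitals.
NDUFS7: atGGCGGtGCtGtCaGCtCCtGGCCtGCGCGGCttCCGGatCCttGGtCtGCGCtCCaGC
NDUFB7: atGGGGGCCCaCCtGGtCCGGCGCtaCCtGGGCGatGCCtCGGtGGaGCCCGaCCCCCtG
ATP5D: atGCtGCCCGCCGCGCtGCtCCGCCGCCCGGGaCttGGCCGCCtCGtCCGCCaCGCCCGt
COX7C: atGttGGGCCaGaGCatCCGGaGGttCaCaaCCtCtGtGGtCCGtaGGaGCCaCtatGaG
NDUFA5: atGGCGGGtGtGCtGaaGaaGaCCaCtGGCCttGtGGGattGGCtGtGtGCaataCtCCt
Over these windows the GC content was 68.3% in NDUFS7, 75% in NDUFB7, 80% in ATP5D, 56.7% in COX7C and 55% in NDUFA5. Over the whole coding sequence it was 66.2%, 65.9%, 68.3%, 47.1% and 42.5% in the same order. The first 3 genes are on chromosome 19.

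These 3 GC-rich genes had the largest positive fold changes of the set. NDUFS7, the subunit that carries the last iron-sulfur cluster before ubiquinone, had 9.59, 24.1 and 21.0 FPKM in HEB KO, against 0.883, 8.43 and 14.2 FPKM in wild type. Wild type library 1 was far below the rest, and the groups overlapped. Its log2 fold change was 1.48 (95% interval -0.20 to 3.16, limma adjusted p = 0.539), and 0.97 (0.42 to 1.53, limma adjusted p = 0.0651) without both libraries numbered 1. NDUFB7, an accessory subunit on the intermembrane space side of the membrane arm, had 41.5, 78.4 and 78.8 FPKM in HEB KO, against 6.77, 33.2 and 60.7 FPKM in wild type. Here the lowest library was again wild type 1, and the log2 fold change was 1.35 (-0.26 to 2.95, limma adjusted p = 0.554), and 0.79 without both libraries numbered 1.

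ATP5D encodes the delta subunit of the central stalk of the ATP synthase. It had 14.004, 33.4 and 25.5 FPKM in HEB KO, against 2.05, 11.5 and 17.2 FPKM in wild type. The groups overlapped through HEB KO library 1 and wild type library 3. The log2 fold change was 1.44 (95% interval -0.04 to 2.91, limma adjusted p = 0.511), 1.003 (0.48 to 1.53, limma adjusted p = 0.0547) without both libraries numbered 1, and 0.90 (limma adjusted p = 0.594) after the trend of each library on transcript length and GC content was removed. With library weights in the limma fit it was 1.26 with adjusted p = 0.0427, the only call among the 78 genes in any setting tried, while 11.3% of all genes were called in that setting.

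Fold changes moved with GC content across the set. The Spearman coefficient between log2 fold change and GC content was 0.55 over the 78 genes and 0.50 over 12602 genes, and 0.36 and 0.29 without both libraries numbered 1. The 10 genes of at least 60% GC (ATP5D, COX7A1, NDUFA11, NDUFA13, NDUFB7, NDUFB11, NDUFS7, NDUFS8, NDUFV1 and UQCR11) had a median log2 fold change of 0.63, and 0.55 without both libraries numbered 1. The 1998 tested genes of that GC content had 0.40 and 0.23. The 19 genes under 45% GC had -0.45 and -0.07, and the 4450 tested genes of that GC content had -0.20 and -0.10. The part of base composition in the fold changes was not tested.

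**Figure D3:**
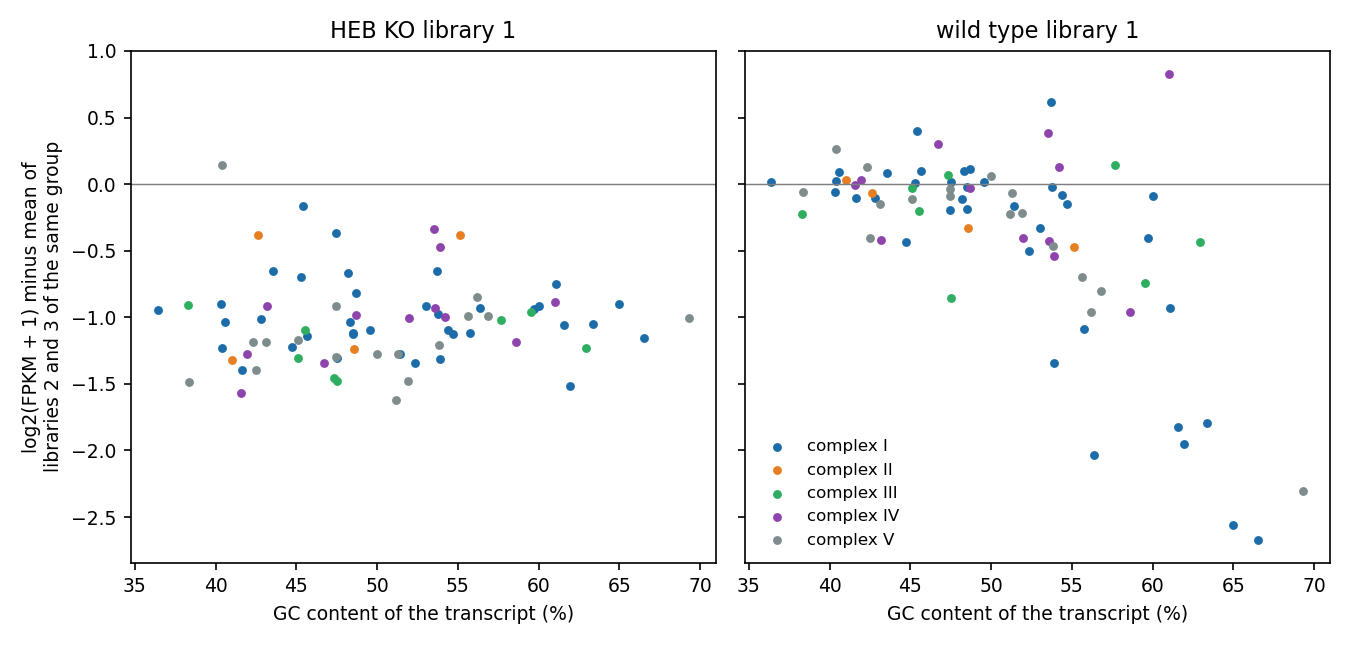
GC content of each tested gene's transcript (x axis, percent) against the log2 difference of library 1 from the mean of libraries 2 and 3 of its group (y axis), in HEB KO (left) and wild type (right). Each point is 1 gene. In HEB KO nearly all points lie below 0 at every GC content. In wild type many but not all points fall away above about 55% GC, down to -2.67 for NDUFS7, while COX7A1 lies at 0.83 and UQCRQ at 0.14.

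Complex I passes electrons from NADH to ubiquinone through the subunits of its peripheral arm and pumps protons through its membrane arm. The 7 nuclear core subunits, which bind the flavin and the iron-sulfur clusters, had a median log2 fold change of -0.24, and 0.08 without both libraries numbered 1. NDUFV1, which binds NADH and the flavin, had 27.1, 45.2 and 47.5 FPKM in HEB KO, against 23.6, 43.7 and 48.0 FPKM in wild type. Library 1 was the lowest of both groups, and the log2 fold change was 0.07 (95% interval -0.71 to 0.86, limma adjusted p = 0.955), and 0.015 without both libraries numbered 1. NDUFS1, the largest iron-sulfur subunit, had 27.9, 47.3 and 44.7 FPKM in HEB KO, against 46.3, 41.3 and 51.4 FPKM in wild type. HEB KO libraries 2 and 3 lay inside the wild type range, and the log2 fold change was -0.24 (-0.84 to 0.36, limma adjusted p = 0.783), and -0.0034 without both libraries numbered 1.

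Among the 29 accessory subunits, which surround and stabilize the core, the median was -0.31, and -0.06 without both libraries numbered 1. NDUFS5 was the most abundant gene of complex I, with 183, 382 and 419 FPKM in HEB KO, against 409.7, 361 and 477 FPKM in wild type. Its log2 fold change was -0.42 (95% interval -1.34 to 0.49, limma adjusted p = 0.745), and -0.054 without both libraries numbered 1. NDUFA10 was the least abundant, with a mean of 10.1 FPKM over the 6 libraries.

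No overlap between groups was seen in 5 of the 37 complex I genes, namely NDUFA1, NDUFA4, NDUFB1, NDUFB3 and NDUFB5, all lower in HEB KO. Over all complexes this held for 12 of 78 genes (15.4%), against 11.8% of all tested genes, and no subunit gene was without overlap in the other direction, against 7.72%. For each of the 12 the two-sided exact permutation p was 0.1, the smallest that 3 libraries against 3 can give. NDUFB3, a small membrane-arm subunit, had 20.8, 42.5 and 45.1 FPKM in HEB KO, against 57.02, 48.0 and 59.6 FPKM in wild type. HEB KO libraries 2 and 3 lay just below the lowest wild type library. On the log2 scale the fold change was -0.66 (95% interval -1.39 to 0.07, limma adjusted p = 0.531), and -0.28 (-0.68 to 0.11) without both libraries numbered 1. NDUFA4 had 48.6, 103 and 129 FPKM in HEB KO, against 144, 137 and 147 FPKM in wild type, with a log2 fold change of -0.71 (-1.57 to 0.14, limma adjusted p = 0.555), and -0.29 without both libraries numbered 1.

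Complex II, or succinate dehydrogenase, joins the citric acid cycle to the respiratory chain and is encoded in the nucleus alone. SDHA, its flavoprotein, had 24.5, 30.5 and 34.2 FPKM in HEB KO, against 32.2, 42.9 and 47.2 FPKM in wild type. HEB KO library 3 lay above wild type library 1, so the groups overlapped, and the log2 fold change was -0.44 (95% interval -0.99 to 0.11, limma adjusted p = 0.568). The value was close to this without both libraries numbered 1, at -0.47 (-0.83 to -0.11), with an unadjusted limma p under 0.05 and an adjusted p = 0.127.

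SDHB, the iron-sulfur subunit, had 26.8, 68.8 and 60.9 FPKM in HEB KO, against 51.9, 62.3 and 69.0 FPKM in wild type. The membrane anchors were SDHC, with 21.0, 27.4 and 27.9 FPKM in HEB KO against 24.6, 24.7 and 27.0 FPKM in wild type, and SDHD, with 37.0, 89.3 and 98.5 FPKM in HEB KO against 101, 94.5 and 103 FPKM in wild type. Without both libraries numbered 1 their log2 fold changes were -0.02 for SDHB, 0.10 for SDHC and -0.07 for SDHD, so SDHA had the largest difference of the 4 there. Whether the 4 genes differ in their fold change was not tested. SDHA, SDHC and SDHD have 4, 5 and 7 RefSeq pseudogenes named after them, and how reads shared with these were counted is not given in the sources used here.

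The promoter of SDHA shows a feature that several of the genes share. Nuclear respiratory factor 1 (NRF1) binds GC-rich palindromes in promoters of many respiratory genes. The window from 250 bases before to 50 bases after the RefSeq start of SDHA, chr5:218070-218369 on the plus strand of GRCh38.p14, is printed with each match to an NRF1-type motif in capitals. The motif is GCGCA and GCGC with any 1 base between them, on either strand.
SDHA: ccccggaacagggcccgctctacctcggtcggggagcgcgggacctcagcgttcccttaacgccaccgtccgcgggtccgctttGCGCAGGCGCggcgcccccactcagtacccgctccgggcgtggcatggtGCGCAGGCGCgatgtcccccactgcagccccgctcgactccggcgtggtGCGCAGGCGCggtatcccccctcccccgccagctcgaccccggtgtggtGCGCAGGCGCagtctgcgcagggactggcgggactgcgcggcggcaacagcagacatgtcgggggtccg
It holds 4 matches. The table had such a window for 67 of the 87 genes. Of the 62 that are subunits in broad use, 15 held at least 1 match (24.2%), against 8.58% of 15843 windows of protein-coding genes. CCGGAAGT, the core of ETS factor sites as bound by GABPA, was in 14.5% of the 62 against 6.19% of all. AAGATGGCG, a YY1-type motif, was in 12.9% against 2.74%. CAGCTG, an E-box of the kind HEB can bind, was in 19.4% against 17.7%. Both strands were searched, and a match describes letters only, not binding.

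None of the 20 tested regulators of these genes passed the threshold, and their median log2 fold change was -0.03. NRF1 had 8.03, 6.06 and 7.43 FPKM in HEB KO, against 7.33, 7.14 and 7.27 FPKM in wild type. GABPA, the DNA-binding subunit of an ETS factor, had 13.5, 13.4 and 14.4 FPKM in HEB KO, against 18.8, 16.5 and 20.5 FPKM in wild type, with no overlap. The difference was -0.40 on the log2 scale (95% interval -0.83 to 0.02, limma adjusted p = 0.520), and it overlaps ATP5J in the annotation, so reads of the pair may not be told apart where counting ignored strand. PPARGC1A, a coactivator of these factors, was below the filter, with 0.679, 0.4001 and 0.368 FPKM in HEB KO and 0.634, 1.06 and 1.25 FPKM in wild type.

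Complex III passes electrons from ubiquinol to cytochrome c. UQCRFS1, the Rieske iron-sulfur protein, had 54.4, 129 and 144 FPKM in HEB KO, against 141, 131 and 157 FPKM in wild type, with a log2 fold change of -0.50 (95% interval -1.39 to 0.39, limma adjusted p = 0.692). It was -0.07 without both libraries numbered 1. UQCRC1, a core protein, had 61.6, 115 and 128 FPKM in HEB KO, against 68.9, 108 and 124 FPKM in wild type, and its log2 fold change was -0.01 (-0.85 to 0.82, limma adjusted p = 0.995), and 0.063 without both libraries numbered 1. Library 1 was the lowest in both groups.

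UQCRH, the hinge protein that helps dock cytochrome c1 and cytochrome c, was the most abundant gene of complex III. It had 189, 491 and 551 FPKM in HEB KO, against 629.6, 561 and 640.3 FPKM in wild type, with no overlap. The log2 fold change was -0.71 (95% interval -1.78 to 0.35, limma adjusted p = 0.637), and -0.20 without both libraries numbered 1. UQCRHL, a copy whose 273 coding bases differ from those of UQCRH at 4, had at most 0.703 FPKM in any library. With 98.5% identity the counting could assign reads of one to the other, and how this was handled is not given in the sources used here. UQCRB, which contacts the ubiquinone site, had 19.3, 32.5 and 42.1 FPKM in HEB KO, against 39.9, 40.9 and 53.8 FPKM in wild type, with a log2 fold change of -0.56 (-1.27 to 0.15, limma adjusted p = 0.574), and -0.33 without both libraries numbered 1.

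**Figure D4:**
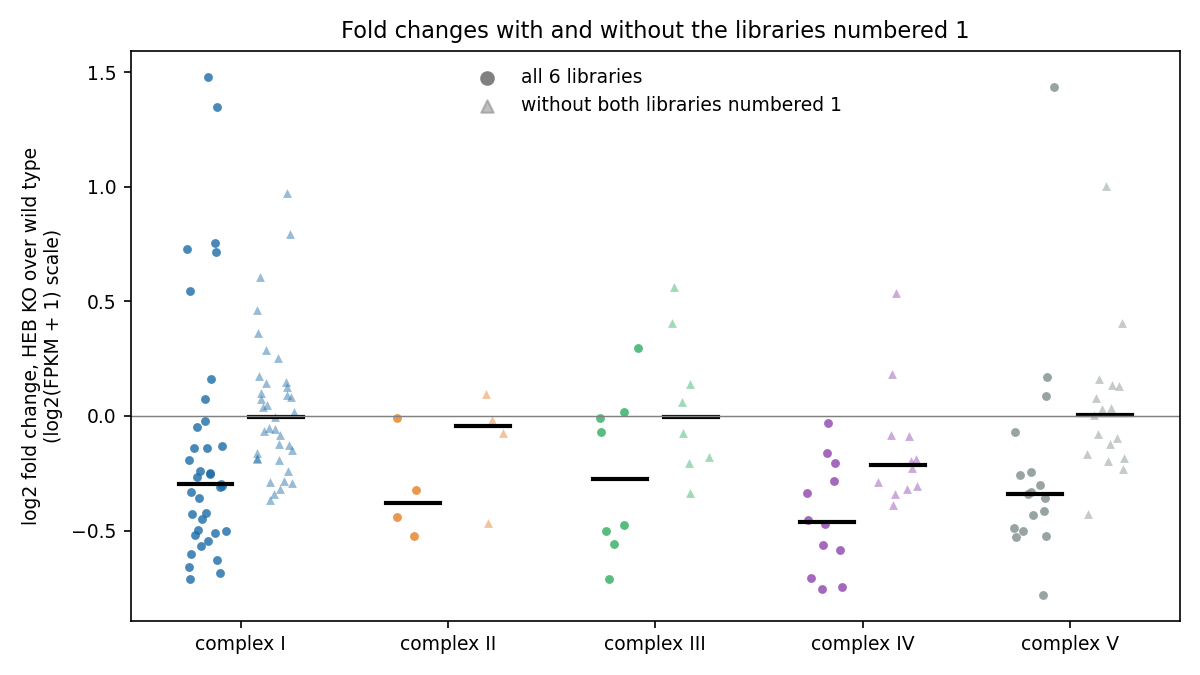
Log2 fold change of each tested gene, HEB KO over wild type on the log2(FPKM + 1) scale (y axis), by complex (x axis), with all 6 libraries (circles) and without both libraries numbered 1 (triangles). Bars are medians; with all 6 libraries they lie between -0.46 and -0.27, and without both libraries numbered 1 they lie near 0 except in complex IV, at -0.21.

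Complex IV, cytochrome c oxidase, reduces oxygen, with nuclear subunits that surround a mitochondrially encoded core. Its 12 tested genes all had negative log2 fold changes, with a median of -0.46. Without both libraries numbered 1, 10 of the 12 were negative, with a median of -0.21, against -0.01 over all tested genes. Quantile normalization of all 6 libraries left 8 of 12 negative. Trimmed mean of M values scaling and removal of the length and GC trend each left all 12 negative, with medians of -0.41 and -0.32. None passed the threshold in any setting tried. In libraries 2 and 3 alone, HEB KO lay below wild type with no overlap in 6 of the 12 (COX4I1, COX6A1, COX6B1, COX6C, COX7A2 and COX7B), against 29.4% of all tested genes, and above it in COX7A1 alone, against 27.4%. Over all 78 genes these counts were 19 lower (24.4%) and 15 higher (19.2%).

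COX6A1, a subunit of the dimer interface, had 207, 256 and 268 FPKM in HEB KO, against 434, 352 and 314 FPKM in wild type, with no overlap. Its HEB KO library 1 was 0.789 times the mean of libraries 2 and 3, a smaller drop than in most of the set. The log2 fold change was -0.58 (95% interval -1.27 to 0.10, limma adjusted p = 0.549), and -0.34 (-0.78 to 0.10, limma adjusted p = 0.311) without both libraries numbered 1. COX6C, a small membrane subunit, had 73.3, 134 and 159 FPKM in HEB KO, against 187, 182 and 202 FPKM in wild type, with no overlap. Its log2 fold change was -0.71 (-1.48 to 0.06, limma adjusted p = 0.523), and -0.39 (-0.82 to 0.04) without both libraries numbered 1. RefSeq names 18 pseudogenes after COX6C, the most of any gene of the set.

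COX7B had 119, 269.8 and 311 FPKM in HEB KO, against 369, 341 and 383 FPKM in wild type. COX7A2, the isoform of broad use, had 94.9, 237 and 247 FPKM in HEB KO, against 344, 269.8 and 287 FPKM in wild type. Both were without overlap, with log2 fold changes of -0.75 (95% interval -1.69 to 0.18, limma adjusted p = 0.566) and -0.75 (-1.70 to 0.21, limma adjusted p = 0.576). These were -0.32 for COX7B and -0.20 for COX7A2 without both libraries numbered 1. COX7C was the most abundant gene of the whole set, with 646, 1737 and 2107 FPKM in HEB KO, against 1679, 1585 and 1787 FPKM in wild type. HEB KO library 1 was 0.336 times the mean of HEB KO libraries 2 and 3, which lay on both sides of the highest wild type library. The log2 fold change was -0.34 (-1.64 to 0.96, limma adjusted p = 0.861) and, without both libraries numbered 1, 0.18.

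COX5A and COX5B lie on the matrix side of the core. COX5A had 84.9, 155 and 188 FPKM in HEB KO, against 212, 180.0 and 209.9 FPKM in wild type, and COX5B had 75.3, 147 and 157 FPKM in HEB KO, against 122, 147 and 177 FPKM in wild type. Their log2 fold changes were -0.56 and -0.28 (limma adjusted p = 0.612 and 0.804), and -0.19 and -0.084 without both libraries numbered 1. COX4I1, a regulatory subunit that binds ATP, had 204, 271 and 297 FPKM in HEB KO, against 228, 299.9 and 368 FPKM in wild type. COX6B1 had 142, 252 and 293 FPKM in HEB KO, against 249, 307 and 368 FPKM in wild type, and COX8A had 131, 290.4 and 308 FPKM in HEB KO, against 162, 293 and 344 FPKM in wild type. In all 3 the groups overlapped, with log2 fold changes of -0.20, -0.47 and -0.16 (limma adjusted p = 0.851, 0.689 and 0.922), and -0.23, -0.31 and -0.087 without both libraries numbered 1.

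**Figure D5:**
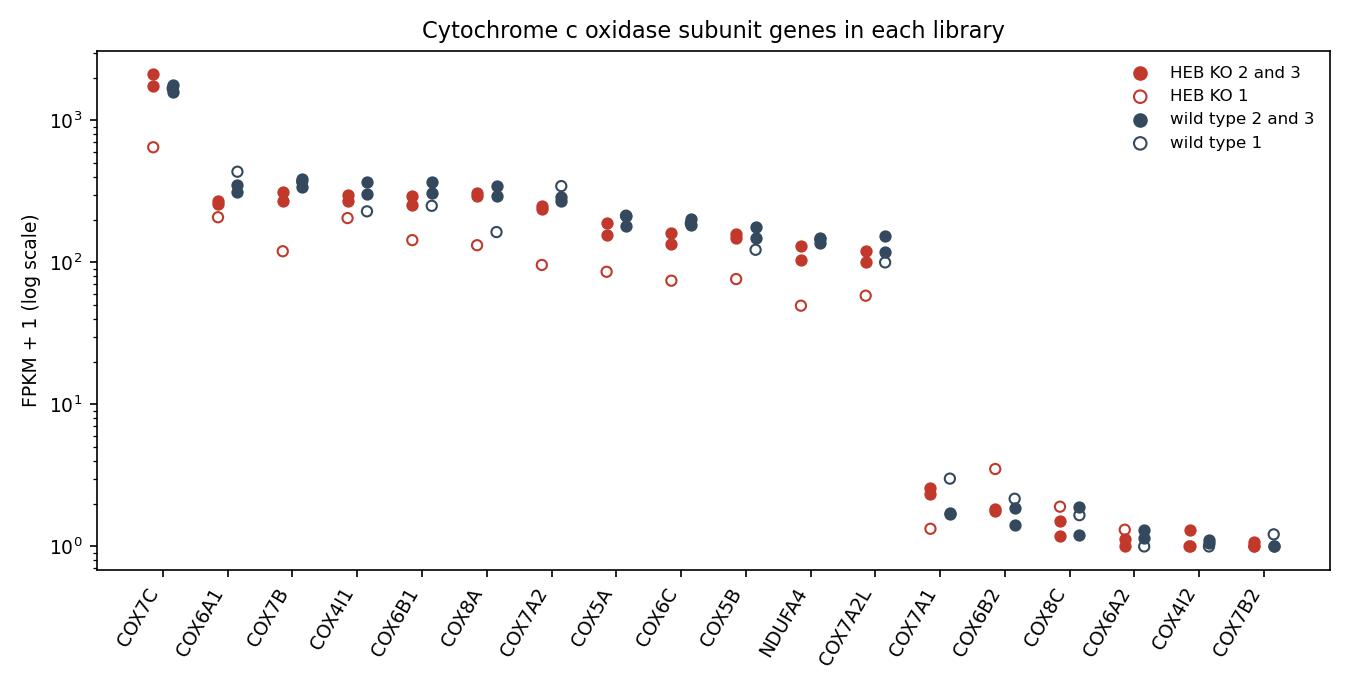
FPKM + 1 of the cytochrome c oxidase genes and NDUFA4 in each library (y axis, log scale), HEB KO in red left of wild type in blue, with library 1 of each group as an open circle. The subunits in broad use lie between 48.6 and 2107 FPKM with HEB KO library 1 at the bottom of each. The 6 tissue isoforms on the right have at most 2.51 FPKM in any library, and 0 FPKM is drawn at 1.

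Several complex IV subunits have a second gene that is used in particular tissues. COX4I2 is known from lung, COX6A2 and COX7A1 from heart and skeletal muscle, and COX6B2, COX7B2 and COX8C from testis. COX7A1 was the only one past the filter, with 0.332, 1.36 and 1.57 FPKM in HEB KO, against 2.004, 0.680 and 0.707 FPKM in wild type. Its order reversed between library 1 and the others, and its log2 fold change was -0.03 (95% interval -0.83 to 0.76, limma adjusted p = 0.985) and 0.54 (0.15 to 0.92, limma adjusted p = 0.109) without both libraries numbered 1. COX6B2 had 2.51, 0.770 and 0.830 FPKM in HEB KO, against 1.17, 0.851 and 0.416 FPKM in wild type. COX8C stayed between 0.191 and 0.906 FPKM, COX6A2 had at most 0.312 FPKM, COX4I2 at most 0.308 FPKM and COX7B2 at most 0.217 FPKM in any library. The broadly used partners COX4I1, COX6A1, COX6B1, COX7A2, COX7B and COX8A had from 94.9 to 434 FPKM in any library, so in every library the broadly used gene was the higher of its pair.

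Complex V has a catalytic head (F1) of ATP5A1, ATP5B, ATP5C1, ATP5D and ATP5E (now ATP5F1A to ATP5F1E) on a membrane sector with a ring of c-subunits. ATP5A1, the alpha subunit, had 231, 513 and 633 FPKM in HEB KO, against 585, 557 and 692 FPKM in wild type. Its partner ATP5B, the catalytic beta subunit, had 219.9, 512 and 557 FPKM in HEB KO, against 546, 526 and 621 FPKM in wild type. In both, HEB KO libraries 2 and 3 lay within or near the wild type range, and library 1 lay far below. The log2 fold changes were -0.53 (95% interval -1.55 to 0.50) and -0.50 (-1.50 to 0.49), with limma adjusted p = 0.715 and 0.720, and without both libraries numbered 1 they were -0.12 and -0.10. ATP5E, the epsilon subunit of the central stalk, had 138, 372 and 406 FPKM in HEB KO, against 281, 292 and 295 FPKM in wild type. HEB KO library 1 lay below all wild type libraries and HEB KO libraries 2 and 3 above them. Its value was -0.071 on the log2 scale with all 6 libraries (limma adjusted p = 0.968) and 0.40 (limma adjusted p = 0.241) without both libraries numbered 1. ATP5C1, the gamma subunit, likewise turned sign, at -0.36 (limma adjusted p = 0.768) with all 6 libraries and 0.081 without both numbered 1. ATP5D had the only positive value of the 5 head genes with all 6 libraries, and whether it differs from the others was not tested.

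The peripheral stalk holds the head still against the turning ring. Its ATP5H, also named subunit d, had 124.6, 269.9 and 295 FPKM in HEB KO, against 351, 365 and 394 FPKM in wild type, with no overlap. The log2 fold change was -0.78 (95% interval -1.67 to 0.11, limma adjusted p = 0.540), and -0.43 (-0.87 to 0.02, limma adjusted p = 0.222) without both libraries numbered 1. ATP5J of the same stalk was without overlap too, with 52.6, 98.3 and 102 FPKM in HEB KO, against 112, 103 and 128 FPKM in wild type. The 4 stalk genes had a median of -0.51, and -0.14 without both libraries numbered 1.

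The c-subunit is encoded by 3 genes, ATP5G1, ATP5G2 and ATP5G3 (now ATP5MC1 to ATP5MC3), whose products differ in the targeting sequence that is cut off and give the same mature protein. Over the last 225 coding bases, ATP5G1 and ATP5G2 were 88.4% identical, ATP5G1 and ATP5G3 80.4%, and ATP5G2 and ATP5G3 80.9%. In these pairs 23 of 26, 39 of 44 and 39 of 43 differences fell on the last base of a codon. The following 90-base stretches, from GENCODE 29 transcripts of chromosomes 17, 12 and 2, are printed to show how far short reads can tell the genes apart, with the bases not shared by all 3 in capitals.
ATP5G1: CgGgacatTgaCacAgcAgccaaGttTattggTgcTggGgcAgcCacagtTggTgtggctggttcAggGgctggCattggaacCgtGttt
ATP5G2: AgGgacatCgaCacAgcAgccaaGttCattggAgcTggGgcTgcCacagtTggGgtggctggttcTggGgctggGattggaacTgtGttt
ATP5G3: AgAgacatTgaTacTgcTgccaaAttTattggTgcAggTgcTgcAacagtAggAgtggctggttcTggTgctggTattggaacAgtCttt
The longest run shared by any pair over the 225 bases was 17 bases.

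ATP5G2 was the highest of the 3, with 201, 337 and 477 FPKM in HEB KO, against 260.4, 409 and 507 FPKM in wild type. ATP5G1 had 65.0, 149 and 155 FPKM in HEB KO, against 123, 156 and 186 FPKM in wild type. ATP5G3 had 23.1, 64.9 and 67.6 FPKM in HEB KO, against 50.7, 53.2 and 65.6 FPKM in wild type. The order ATP5G2, ATP5G1, ATP5G3 held in each of the 6 libraries. Their log2 fold changes were -0.25, -0.41 and -0.26, with limma adjusted p of 0.869, 0.742 and 0.853, and -0.18, -0.17 and 0.16 without both libraries numbered 1.

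The partner genes and pathways did not pass the threshold with all 6 libraries either. None of 11 further subunits and electron-carrying partners, 53 assembly factors, 19 genes of the citric acid cycle and pyruvate dehydrogenase, 31 carriers and import factors or 76 mitochondrial ribosomal protein genes was called in either direction. Their median log2 fold changes were -0.37, -0.11, -0.21, -0.16 and -0.15, and without both libraries numbered 1 they were -0.04, 0.06, -0.09, 0.11 and 0.13. CYC1, cytochrome c1 of complex III, had 40.2, 89.8 and 91.6 FPKM in HEB KO, against 33.0, 76.6 and 85.7 FPKM in wild type. NDUFAB1, the acyl carrier protein within complex I, had 47.8, 138 and 133 FPKM in HEB KO, against 151, 145 and 155 FPKM in wild type.

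The partner genes with the smallest p of their lists had no overlap between groups, except MRPL55. Choosing genes by a small p favours such genes, and 19.5% of all tested genes had no overlap in either direction. AIFM1, which takes part in the import of respiratory subunits, had 18.1, 22.5 and 22.4 FPKM in HEB KO, against 28.5, 25.9 and 27.5 FPKM in wild type (log2 fold change -0.37, limma adjusted p = 0.555, and -0.24 without both libraries numbered 1). SUCLG1, a subunit of succinyl-CoA ligase in the citric acid cycle, had 13.9, 29.6 and 29.1 FPKM in HEB KO, against 37.4, 38.2 and 46.3 FPKM in wild type (-0.79, limma adjusted p = 0.447, and -0.50 without both numbered 1). TOMM7, of the outer membrane import complex, had 98.7, 278 and 277 FPKM in HEB KO, against 331, 497 and 538 FPKM in wild type (-1.18, limma adjusted p = 0.450, and -0.89 without both numbered 1). In the other direction, C11orf83 (now UQCC3), an assembly factor of complex III, had 5.36, 10.7 and 7.64 FPKM in HEB KO, against 3.98, 3.46 and 5.03 FPKM in wild type (0.75, limma adjusted p = 0.407, and 0.95 without both numbered 1). MRPL55, of the large mitochondrial ribosomal subunit, had 14.9, 30.8 and 26.4 FPKM in HEB KO, against 7.82, 13.7 and 15.5 FPKM in wild type, and here HEB KO library 1 lay within the wild type range. Its log2 fold change was 0.90 (limma adjusted p = 0.432), and it passed the threshold without both libraries numbered 1, at 0.92 (limma adjusted p = 0.0288). With library weights in the limma fit, where 11.3% of all genes were called, TOMM7 at -0.86 (adjusted p = 0.0373), C11orf83 at 1.003 (adjusted p = 0.0151) and MRPL55 at 0.9989 (adjusted p = 0.0122) passed the threshold, and AIFM1 and SUCLG1 did not (adjusted p = 0.213 and 0.0768).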

How the data were processed

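Total RNA of 6 libraries was measured, 3 per group. Per the labels' protocols, RNA was isolated with TRIZOL, depleted with Ribo-Zero Gold and made into libraries with a stranded TruSeq kit. The submitters' processing notes name TopHat2 2.1.0, Bowtie2 2.2.6 and hg19. The deposited table holds 1 value per gene symbol and library, taken from the values themselves to be FPKM. Which tool, annotation and strand setting gave them is not given in the sources used here. FPKM holds no read counts, so the depth per library is unknown and no counting interval is given. Of 23619 entries, 28 had dates in place of symbols and were left out.

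Genes of 1 FPKM or more in 3 or more libraries were tested with limma 3.58.1 (R 4.3.3, intensity trend) on log2(FPKM + 1), with Benjamini-Hochberg adjustment at 0.05 over 12937 genes. The pseudocount understates fold changes of low genes. The fit was tested on simulated data. Transcript length and GC content come from GENCODE 29, and promoters, symbols and pseudogenes from RefSeq GRCh38.p14. As that build differs from hg19, its coordinates are given only for sequences of its own. Genes named with a fold change were those past the threshold, the 2 of smallest p and the most abundant of each complex, a list fixed by role, and the gene of smallest p of each partner list. The choice of other genes to name, such as NDUFB7, ATP5J, CYC1 and NRF1, was made with their values known. The values of 1 gene of the role list are not reported here. The members and lists were chosen with earlier results of these data known. Alternatives were other pseudocounts, filters, scalings (trimmed mean of M values, quantile, and length and GC trend with mgcv 1.9.3), library weights, a replicate block and leaving out libraries.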

Additional observations from a re-analysis of the deposited data

How the results depend on the processing

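The count of subunit genes past the threshold stayed at 0 in 16 of 17 other settings and was 1 (ATP5D) with library weights. The count over all genes, 31, was 18 with a filter of 5 FPKM, 50 with the length and GC trend removed, 1467 with library weights, 11 with no filter and 480 without both libraries numbered 1. It was 7 to 76 without any single library, with 76 without HEB KO replicate 1, 7 without HEB KO replicate 3 or wild type replicate 1, 9 without HEB KO replicate 2 or wild type replicate 2, and 10 without wild type replicate 3. The median log2 fold change over the 78 subunit genes lay between -0.54 and -0.00 in the other settings, and that of complex IV between -0.67 and -0.15. The median of complex II was -0.52 to 0.0046 without any single library. The cause of these shifts was not tested.

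With the replicate block, 10 genes and none of the subunit genes passed the threshold, and 7 subunit genes had an unadjusted p under 0.05 (8.97%, against 14.0% of all genes). TCF12 kept a log2 fold change of -2.31 but missed the threshold (limma adjusted p = 0.0957). Libraries of the same number correlated in their deviations from the group means with 0.262, -0.0399 and 0.269. Wild type libraries 1 and 2 were closest to HEB KO 1 and wild type library 3 to HEB KO 2. Such deviations cancel within each group, so these values cannot decide whether libraries of the same number share more than the number, which was not tested.

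Of 679 log2 fold changes in other settings, over the 40 genes that the naming rule chose, 628 kept direction and side of the threshold, 7 (all TCF12) missed it, 5 passed it newly and 39 turned sign, in 12 genes. With library weights the turned values were 0.17 for COX7C, 0.023 for NDUFS1, 0.11 for SDHC, 0.13 for UQCRC1, 0.44 for COX7A1, 0.0050 for COX8A and 0.19 for ATP5G3. Under quantile normalization they were 0.038 for COX7C, 0.093 for SDHC, 0.12 for UQCRC1, 0.0196 for COX4I1, 0.0177 for COX7A1 and 0.082 for COX8A. Trimmed mean of M values scaling gave 0.042 for SDHC and 0.041 for UQCRC1, and removal of the length and GC trend gave -0.18 for NDUFV1 and 0.086 for SDHC. Without both libraries numbered 1 they were 0.18 for COX7C, 0.10 for SDHC, 0.063 for UQCRC1, 0.54 for COX7A1 and 0.16 for ATP5G3. Without any single library the values ranged from -0.54 to 0.085 for ATP5G2, -0.52 to 0.23 for ATP5G3, -0.47 to 0.0504 for COX5B, -0.21 to 0.26 for COX7A1, -0.67 to 0.19 for COX7C, -0.48 to 0.23 for COX8A, -0.24 to 0.33 for NDUFV1, -0.57 to 0.091 for SDHB, -0.078 to 0.12 for SDHC and -0.26 to 0.31 for UQCRC1. None of these values passed the threshold.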
